A study of Mus musculus with 18 samples.

Results

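Histones packaged onto newly copied DNA are encoded by a family of clustered genes, and this account describes that family in mouse muscle cells. The members were the protein-coding genes whose older symbol, as used in GENCODE M21, begins Hist1h, Hist2h, Hist3h or Hist4. The annotation held 67 such genes, and 65 of them were in the deposited tables, among 47311 genes in all. The other members, Hist1h2bm and Hist1h2bh, have no values here and entered only the sequence searches. By type, 6 encode linker histone H1, 18 encode H2A, 16 encode H2B, 12 encode H3 and 13 encode H4. On the mm10 build, 52 of the 65 lie between bases 21715763 and 23934851 of chromosome 13, 10 between bases 96219865 and 96270132 of chromosome 3, 2 on chromosome 11 and 1 on chromosome 6, and 60 have single-exon transcripts only.

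The cells were C2C12, an immortalised mouse muscle line grown here either as dividing myoblasts or, after differentiation, as multinucleate myotubes. There were 6 groups of 3 libraries, 18 in all: myoblasts with a control siRNA, with siRNA 1 against Setd2 or with siRNA 2 against Setd2, and differentiated myotubes with the same 3 treatments. Setd2 encodes a lysine methyltransferase of histone H3. All cells, controls included, had been stretched just before the RNA was taken, and no unstretched group was used here. The libraries are labelled as biological replicates, but nothing says that they came from separate cultures, so the p-values measure the spread between these libraries, which may be partly technical.

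As background, the mRNAs of these genes are made mainly in S phase and typically end in a short stem-loop rather than a poly(A) tail. The stem-loop is bound by SLBP, which takes part in cutting the transcript, in translation and in decay of the mRNA when DNA synthesis stops. Some members can also give longer, polyadenylated transcripts, and this is known in cells that have left the cell cycle. Here RNA with a poly(A) tail was sequenced, so the values describe the histone RNA recovered in such libraries and not all histone mRNA.

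The libraries held 43.5 to 66.6 M estimated counts. The targeted gene, Setd2, was at 97.7, 109 and 118 CPM in the control libraries of myoblasts; siRNA 1 gave 41.5, 41.5 and 34.4 and siRNA 2 gave 45, 44 and 39.3, and myotubes stood at 107, 108 and 102, 58.8, 38.9 and 39.1, and 38.9, 36 and 34.5 in the same order. CPM are counts per 1 M counts of the library, scaled between libraries as described under the processing. Each depleted library lay below every control library of its stage. Ribosomal RNA-like sequence took 1.20% to 1.36% of the counts of control myoblasts, 3.56% to 3.91% in siRNA 1 myoblasts and 1.46% to 4.10% in siRNA 2 myoblasts, and 1.27% to 2.30%, 1.5% to 2.88% and 2.26% to 2.99% in the same groups of myotubes. The third myoblast library of siRNA 2 has a table column named for SETD3 where its label has SETD2, and the third myotube control carries another control name than the rest, so results are also given without each. Library names start with C14 or D2 in myoblasts and with C13 or D1 in myotubes; what the prefixes stand for is not given. The 8 myotube markers summed to 37.4 to 105 CPM in control myoblasts and to 12910.0 to 13650.0 in control myotubes. The 5 myoblast markers were also higher in sum in control myotubes, at 5625 to 5948 against 1657 to 1990 CPM, with 4 called higher and 1 lower. The 4 adipocyte markers summed to 0.052 to 0.13 CPM in control myoblasts and were at 0 in all control myotubes. The 3 endothelial markers summed to 0.52 to 0.67 and 0.115 to 0.30 CPM in the same order, and the 3 macrophage markers to 0.095 to 0.39 and 0.091 to 0.12. These marker sums are not scaled between libraries.

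The stem-loop itself could be read in the annotated transcripts. A 16-letter word, made of GG, any 2 letters, CTTT, any 2 letters, AG, any 2 letters and CC, which spells the stem, the loop and the stem's return, was searched on the sense strand of GENCODE M21 transcripts within 200 bases after the stop codon. It was found in 44 of the 67 annotated members and in 9 of 21607 other protein-coding genes with an annotated stop, 0.0417%. A missing word can reflect a transcript annotated only to near its stop. The sites below are shown because the results turn on these genes; capitals mark the 16-letter word and lower case the 12 bases before it, 5′ to 3′ on the gene's strand.
Hist1h2ap: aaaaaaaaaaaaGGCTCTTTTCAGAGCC
Hist1h1c: aacaatccaaaaGGCTCTTTTCAGAGCC
Hist1h1e: caacaacccaaaGGCTCTTTTCAGAGCC
Hist2h2aa1: agctcctaaaaaGGCTCTTTTCAGAGCC
Hist3h2a: acagacaccaaaGGCTCTTTTCAGAGCC
Hist1h2bk: tctagcaccaaaGGCTCTTTTAAGAGCC
Hist2h3c2: attccccacaaaGGCTCTTTTCAGAGCC
Hist1h3a: gaattaaccaaaGGCTCTTTTCAGAGCC
Hist1h4i: atgctacttaaaGGCCCTTTTTAGGGCC
Hist1h4j: tatttccctaaaGGTCCTTTTCAGGACC

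Among the 42 members in the tables with the word, 24 carried the form seen in Hist1h2ap, Hist1h1c and Hist2h3c2. Hist1h4i, Hist1h4j and Hist1h2bk differ within the stem or loop, as their lines show. Hist1h2ap stands apart by the 12 adenines directly before its word, a run shared in that place among members only with Hist1h2ao, its near-identical copy. Of other protein-coding genes 9.31% hold a run of that length anywhere in an annotated transcript, coding bases included. Among the members, Hist1h2ac holds a run of 15 adenines elsewhere in its transcript. This feature was singled out after the values of Hist1h2ap were seen. Hist1h2bc and Hist2h2be hold no word in their annotated transcripts, which continue for 742 and 2192 bases after the stop.

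The annotated ends fall into 4 classes. The transcripts of 18 members end within 50 bases after the word, 24 run further, 19 hold no word and end at most 200 bases after the stop, and 4 hold no word and run over 200 bases after it (Hist1h2bc, Hist2h2be, Hist1h2bq and Hist1h2br). The hexamer AATAAA, the usual signal for adding a poly(A) tail, or its variant ATTAAA was in the last 50 bases of 2 of the 18, 11 of the 24, 1 of the 19 and 3 of the 4. A match to these letters is a description of the annotation, not of where the transcripts in these cells end.

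Many members are near-identical, and a read in a shared stretch is divided between copies by the authors' estimate. With windows of 50 bases, 32 of the 65 members had under 50% of their transcript unique to them. Hist1h2ap shared 93.1% of its windows with Hist1h2ao, so their division is uncertain, while Hist1h1a, Hist1h1b and Hist2h2be were unique in all windows. Sums per histone type are therefore given beside the single genes. They cover sharing within a type, but not sharing with genes outside the members. Among the H2A genes, Hist1h2aj, which is not a member, shares 49.2% of the windows of Hist1h2ap and 82.0% of those of Hist1h2ai. Gm20634 shares 100% of the windows of the H2A gene Hist2h2aa2 and 63.5% of those of the H3 gene Hist2h3c2. The part of reads from such genes in the sums was not tested.

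One gene, Hist1h2ap, held most of the histone RNA of myoblasts and far less of it in myotubes. Its level (length-corrected abundance, TPM) was 1182, 1153 and 919.8 in the 3 control myoblast libraries and 129, 130.0 and 162 in the 3 control myotube libraries. That was 77.4% to 81.2% of all counts assigned to the members in control myoblasts and 12.3% to 16.1% in control myotubes. The other 64 members together moved the opposite way, from 157, 153 and 146 TPM to 338, 369 and 332 TPM. No control myoblast value overlapped a control myotube value in either sum.

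**Figure D1:**
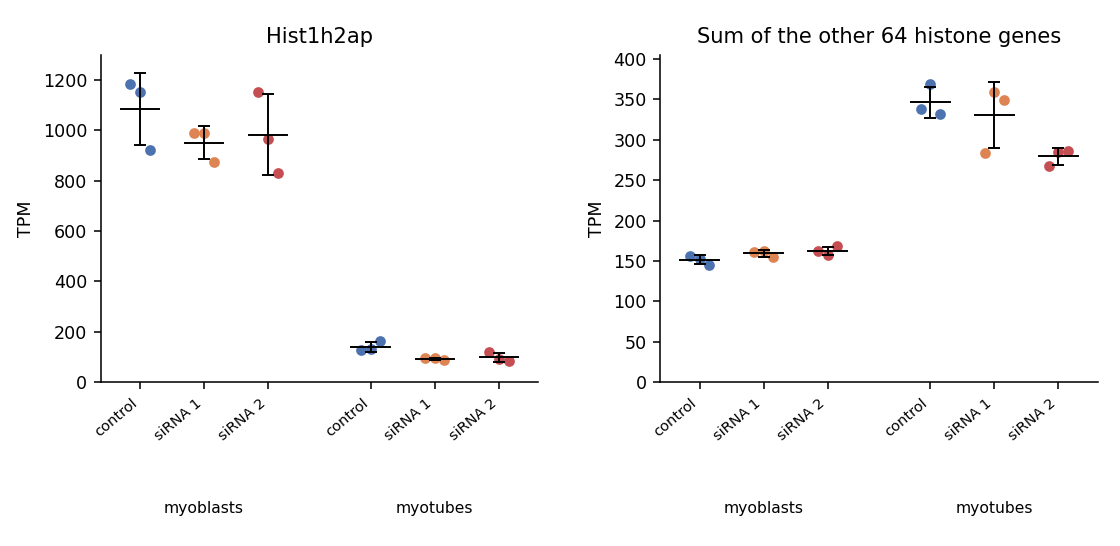
Level in TPM (vertical axis, from 0) of Hist1h2ap (left) and of the summed other 64 histone genes (right) in each library of the 6 groups; points are libraries, bars the mean and 1 SD (n = 3). Hist1h2ap lay between 919.8 and 1182 TPM in control myoblasts and between 129 and 162 in control myotubes, while the other members rose from at most 157 to at least 332 TPM.

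Besides Hist1h2ap, few members were abundant. In control myoblasts 3 members had a mean above 10 TPM and in control myotubes 6, while 9 members stayed under 1 TPM in every library. The TPM of Hist1h2bc, at 22.6 ± 2.33 (SD, n = 3), and of Hist1h1c, at 19.1 ± 0.30, followed Hist1h2ap in control myoblasts, and the SDs of the first and of the second leave the order between Hist1h2bc and Hist1h1c close. In control myotubes Hist1h2bc was at 149 ± 11.2 TPM, Hist1h2ap at 140.1 ± 18.6 and Hist1h1c at 88.7 ± 4.16; the first and the second of these did not differ beyond their spread. Hist2h2aa1 (24 ± 6.67 TPM), Hist1h2bk (21.3 ± 3.09) and Hist2h3c2 (10.7 ± 0.568) followed.

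Differentiation divided the family. A few genes that were already abundant or that lie in the smaller clusters rose in control myotubes, led by Hist2h3c2, Hist1h2bc and Hist1h1c. Of the 41 tested genes of chromosome 13, 26 fell, led by Hist1h2ap, and 5 rose. Of these 41, 13 passed the filter on low counts in the myotube libraries, against 6 of the 8 tested genes of chromosome 3. Members that passed in myoblasts alone were likely to come out lower, so these counts cannot compare the clusters. By mean TPM, 47 of the 65 members were lower in control myotubes, 14 were higher and 4 were at or under 3 counts in both groups. In edgeR's quasi-likelihood test on all 18 libraries, 12 members were called higher and 28 lower of the 51 that passed the filter on low counts, at an adjusted p under 0.05. Over all 16930 genes tested, 39.4% were called higher and 38.1% lower, 77.5% in all. The median log2 fold change was -1.47 over the 51 members, and -1.42 over the 46 that were above 3 counts in each control group, against 0.00 over all genes. The 51 include 31 that passed in the myoblast libraries alone and so were likely to come out lower; of the 18 kept in both stages' own filters 10 were called higher, 4 lower and 4 neither. Stage, table and library prefix change together here and cannot be told apart. In bulk RNA, fewer cells of a type and less RNA per cell cannot be told apart either. Of the 5 fibroblast markers 4 were tested and called higher in myotubes, and their sum went from 13.5 to 13.8 CPM to 97.5 to 108 CPM, mostly through Dcn; the part of other cells in the histone values was not tested.

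**Figure D2:**
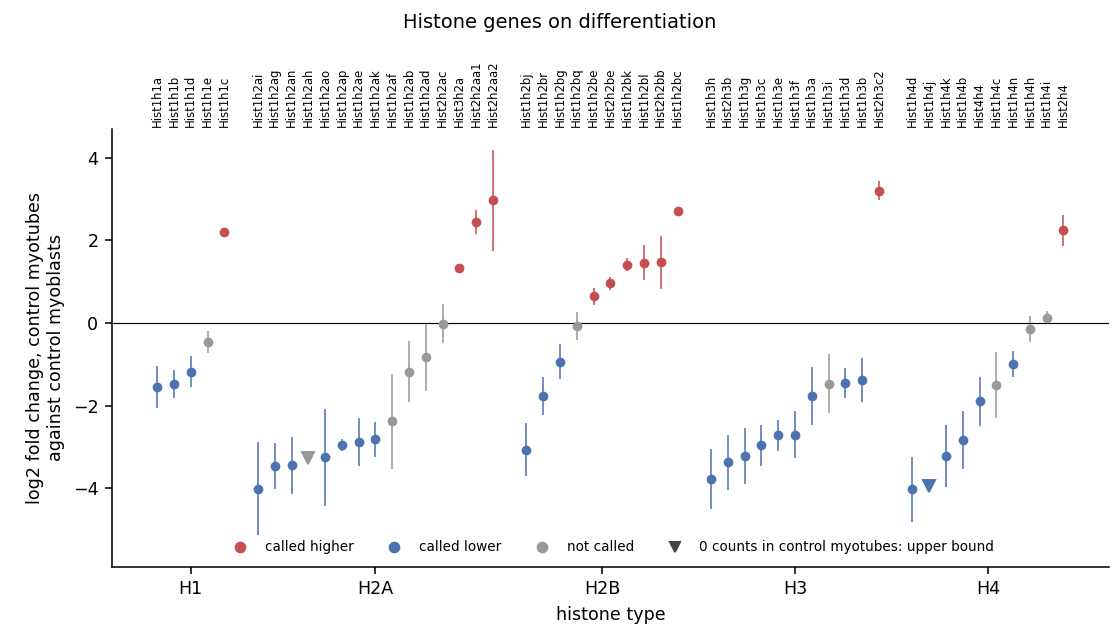
Log2 fold change of control myotubes against control myoblasts (vertical axis) for the 51 members that passed the filter, ordered within histone type; points are edgeR estimates, bars 1 SE, red called higher, blue called lower, grey not called. The triangles of Hist1h4j and Hist1h2ah, which had 0 counts in control myotubes, are upper bounds. The 12 members called higher lie in all 5 types, and 9 of the 11 H3 genes tested were called lower, against 38.1% of all genes. Of these 11 H3 genes, 2 passed the filter in the myotube libraries. Those that passed in myoblasts alone were likely to come out lower.

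Among the linker histone genes, Hist1h1c rose and the others that were called fell. Hist1h1c (chr13:23738808-23740367, plus strand), a somatic H1 gene, was at 14.3, 14.7 and 14.5 CPM in control myoblasts and at 66, 70.2 and 62.6 CPM in control myotubes, without overlap, and its log2 fold change was 2.19 (SE 0.08, adjusted p = 2.26e-15). Hist1h1d (chr13:23553262-23560686, plus strand), another somatic H1 gene, went from 0.564, 0.587 and 0.406 to 0.116, 0.275 and 0.272 CPM, every myotube value lower, with -1.18 (SE 0.38, adjusted p = 0.00804). Hist1h1e (chr13:23620629-23622558, minus strand), also somatic, was at 0.696, 1.06 and 0.918 CPM and at 0.722, 0.58 and 0.641 CPM. Its groups overlapped and it was not called (adjusted p = 0.12). Of the transcript windows of Hist1h1e 23.8% are shared with Hist1h2be and 14.4% with Gm11398, so some of its reads may belong there.

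Among the H2A genes, Hist1h2ap (chr13:21833026-21833507, minus strand) was at 197, 189.7 and 149 CPM in control myoblasts and at 21.2, 21.6 and 26.2 CPM in control myotubes. Every myotube value lay far below every myoblast value, and the log2 fold change was -2.96 (SE 0.15, adjusted p = 1.44e-10). Hist1h2ak (chr13:21753435-21753827, minus strand), which encodes a canonical H2A, fell from 0.514, 0.459 and 0.53 to 0.0699, 0.0458 and 0.0972 CPM, by 2.82 (SE 0.43, adjusted p = 5.36e-06) on the log2 scale. Hist1h2ag (chr13:22042460-22042944, minus strand), of the same cluster, fell from 0.912, 0.605 and 0.406 to 0.0466, 0.0611 and 0.0583 CPM, by 3.46 (SE 0.55, adjusted p = 9.29e-06). It shares 71.8% of its windows with Hist1h2ap. Of the 15 H2A genes tested, 4 passed the filter in the myotube libraries. Hist1h2ak and Hist1h2ag passed in myoblasts alone, and members that did so were likely to come out lower.

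Of the 5 H2A genes outside chromosome 13, 3 were called higher, against 39.4% of all genes tested. The others were Hist2h2ac, at 0.116, 0.202 and 0.159 and 0.116, 0.168 and 0.175 CPM with overlapping groups and no call, and Hist2h2ab, which had 2 counts over the control myoblasts and 0 in the control myotubes and did not pass the filter. Hist2h2aa1 (chr3:96245497-96246082, plus strand) was at 0.597, 1.3 and 1.08 CPM in control myoblasts and at 4.33, 7.05 and 4.53 in control myotubes, without overlap, with a log2 fold change of 2.44 (SE 0.29, adjusted p = 1.05e-06). Its inverted copy Hist2h2aa2 (chr3:96239749-96240276, minus strand) was at 0.398, 0 and 0 and at 1.56, 0.397 and 1.44 CPM; the groups overlapped at the lowest myotube library, and the fitted change of 2.97 (SE 1.23, adjusted p = 0.0409) rests on a control group with 2 libraries at 0. Both overlap Gm20634, an annotated gene whose own level went from 0.895, 0.825 and 1.15 to 19.2, 22.7 and 18.1 CPM, so reads of these genes and of Gm20634 cannot be told apart. Hist3h2a (chr11:58954685-58956830, plus strand) rose from 2.55, 2.4 and 2.15 to 6.1, 5.86 and 5.81 CPM, every myotube value higher, with 1.32 (SE 0.11, adjusted p = 5.63e-10); it shares 31.5% of its windows with Trim17.

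Among the H2B genes, Hist1h2bc (chr13:23684199-23692908, plus strand) had the smallest adjusted p. It was at 6.15, 7.54 and 6.88 CPM in control myoblasts and at 42.9, 49.3 and 42.7 in control myotubes, without overlap, and its log2 fold change was 2.72 (SE 0.10, adjusted p = 7.61e-15). Hist1h2bk (chr13:22035870-22036345, plus strand) rose from 1.62, 1.08 and 1.17 to 3.03, 4.02 and 3.25 CPM, by 1.41 (SE 0.16, adjusted p = 1.35e-07). Hist1h2bl (chr13:21715763-21716143, minus strand) rose from 0.265, 0.257 and 0.406 to 1.47, 0.672 and 0.486 CPM, by 1.46 (SE 0.42, adjusted p = 0.00372); the first myotube library was the highest and none overlapped the myoblasts. In all, 6 of the 10 H2B genes tested were called higher and 3 lower, against 39.4% and 38.1% of all genes. Of the 10, 7 passed the filter in the myotube libraries.

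Among the H3 genes, Hist2h3c2 (chr3:96238108-96239127, minus strand) went against the rest. It was at 0.464, 0.513 and 0.618 CPM in control myoblasts and at 4.63, 4.95 and 5.07 in control myotubes, and the log2 fold change was 3.20 (SE 0.23, adjusted p = 1.17e-10). Hist2h3c2 shares 63.5% of its windows with Gm20634. Hist1h3h (chr13:21717659-21718069, plus strand) fell from 0.663, 0.348 and 0.618 to 0, 0.0305 and 0.0777 CPM, by 3.78 (SE 0.72, adjusted p = 0.000161) on the log2 scale, and Hist1h3e (chr13:23561534-23562369, minus strand) from 0.365, 0.459 and 0.459 to 0.0466, 0.0458 and 0.0972 CPM, by 2.72 (SE 0.38, adjusted p = 1.85e-06). Hist1h3i (chr13:21782960-21783370, minus strand), at 0.348, 0.238 and 0.106 and at 0.0932, 0.0305 and 0.136 CPM, overlapped between stages and was not called. Of the 11 H3 genes tested, Hist2h3c2 was called higher and 9 were called lower, against 39.4% and 38.1% of all genes. Of these H3 genes 2 passed the filter in the myotube libraries. Those that passed in myoblasts alone were likely to come out lower.

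Among the H4 genes, the most abundant was not called. Hist1h4i (chr13:22040636-22041362, minus strand) was at 2.02, 1.94 and 1.76 CPM in control myoblasts and at 2.05, 2.23 and 1.98 in control myotubes, with a difference of 0.13 (95% interval -0.17 to 0.43) on the log2 scale. Hist1h4n (chr13:21831767-21832196, minus strand) fell from 0.63, 0.459 and 0.60 to 0.349, 0.321 and 0.175 CPM, by 1.00 (SE 0.32, adjusted p = 0.00781). Hist1h4h (chr13:23531050-23531519, plus strand), at 0.265, 0.385 and 0.353 and at 0.233, 0.351 and 0.311 CPM, overlapped and differed by -0.14 (95% interval -0.75 to 0.48). Hist1h4j (chr13:21735064-21735837, plus strand) had 21.2, 13.1 and 12.7 estimated counts in control myoblasts and 0 in each control myotube library, which makes it at least 15.4-fold lower when 3 counts over the group are taken as the floor, and it was called lower (adjusted p = 1.05e-06). Hist1h2ah of the H2A genes was also at 0 in the control myotubes, at least 9.66-fold lower, but with a first myoblast library at 0 it was not called. Of the 10 H4 genes tested, 6 were called lower and Hist2h4, of chromosome 3, was the member called higher, against 38.1% and 39.4% of all genes. Of the 10, 4 passed the filter in the myotube libraries, and those that passed in myoblasts alone were likely to come out lower.

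**Figure D3:**
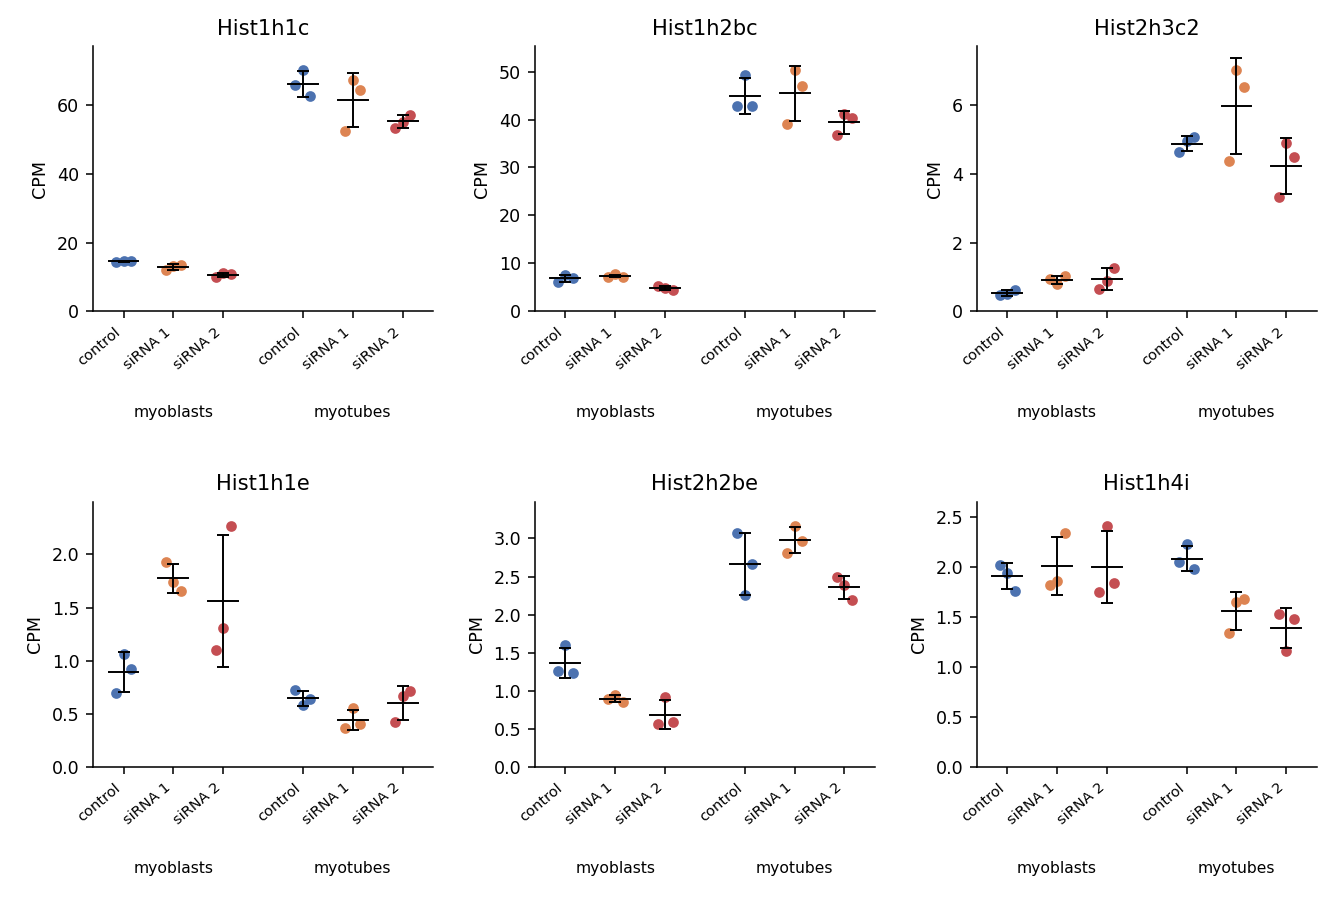
CPM (vertical axes, each from 0) of 6 members in every library of the 6 groups; points are libraries, bars the mean and 1 SD (n = 3). Hist1h1c, Hist1h2bc and Hist2h3c2 stand higher in myotubes whatever the siRNA, Hist1h1e is higher in depleted than in control myoblasts, Hist2h2be lower, and Hist1h4i is lower in depleted than in control myotubes.

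Summed by type, the balance of the histone RNA turned from H2A towards H1 and H2B. The H2A genes together were at 205, 197 and 156 CPM in control myoblasts and at 33.8, 35.6 and 38.8 in control myotubes, a log2 fold change of -2.37 (SE 0.12, adjusted p = 1.98e-10). Without Hist1h2ap the H2A sum was higher in myotubes, by 0.81 (adjusted p = 3.06e-07). That remainder holds Hist2h2aa1 and Hist2h2aa2, which share 89.4% and 100% of their windows with Gm20634. It also holds Hist3h2a, which shares 31.5% with Trim17. The part of reads from Gm20634 and Trim17 in this rise was not tested. The H2B sum rose from 12.6, 13.5 and 12.5 to 52.6, 58.5 and 51.9 CPM, by 2.08 (SE 0.07, adjusted p = 1.14e-15), and without Hist1h2bc by 0.64 (adjusted p = 2.33e-07). The H1 sum rose from 16, 17 and 16.3 to 67, 71.2 and 63.8 CPM, by 2.04 (SE 0.08, adjusted p = 4.08e-14), and without Hist1h1c it was lower in myotubes, by -0.88 (adjusted p = 0.00107).

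The smaller sums moved less. The H4 sum fell from 4.66, 4.35 and 4.18 to 3.35, 3.71 and 3.26 CPM, by 0.35 (SE 0.11, adjusted p = 0.00517) on the log2 scale. The H3 sum was at 4.16, 4.11 and 3.81 and at 5.33, 5.58 and 5.71 CPM, higher in every myotube library, with 0.46 (SE 0.15, adjusted p = 0.0111), but its direction depends on the unit: in TPM it was 22, 20.1 and 18 in control myoblasts and 13.7, 13.8 and 15 in control myotubes, and limma on log2(TPM + 1) gave -0.47 (adjusted p = 0.0114). The transcripts of the H3 genes differ in length, and Hist2h3c2 is annotated at 1020 bases. All 5 sums were called in the count test, 3 higher and 2 lower, as were 77.5% of all rows.

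**Figure D4:**
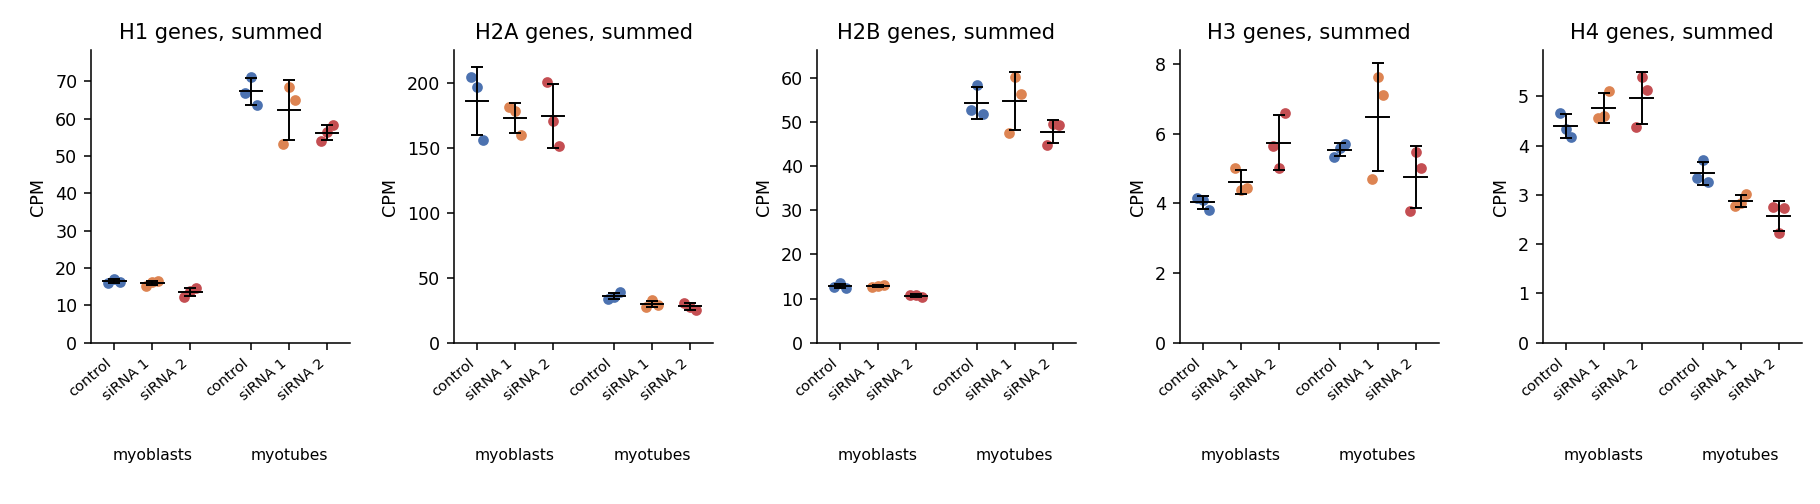
Summed CPM (vertical axes, each from 0) of the H1, H2A, H2B, H3 and H4 genes in every library; points are libraries, bars the mean and 1 SD (n = 3). H1 and H2B are higher and H2A is lower in myotubes with each treatment. The H3 sum is higher in control myotubes in CPM and lower in TPM. Without Hist1h2ap the H2A fall turns to a rise, in a sum whose members share windows with Gm20634 and Trim17.

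The classes of annotated ends differed in their levels. The 4 members with long transcripts and no stem-loop word summed to 24.4, 28.9 and 27.9 TPM in control myoblasts and to 145, 165 and 147 in control myotubes. The 24 members that run past the word went from 56.1, 57.5 and 50.7 to 120.3, 127 and 119 TPM. These classes were higher in every control myotube library, and in control myotubes Hist1h2bc held most of the first and Hist1h1c most of the second; in control myoblasts Hist1h1c was at 19.1 TPM. The 19 short transcripts without the word went from 34.3, 32.6 and 30.1 to 18.4, 11.8 and 10.9 TPM. The 18 that end near the word went from 1224, 1186 and 957 to 183, 195 and 217 TPM, and without Hist1h2ap from 42.1, 33.9 and 36.8 to 54, 65.3 and 55.5. By gene, against 39.4% of all genes called higher and 38.1% lower, 3 were called higher and 7 lower of 13 tested that end near the word, 5 and 11 of 20 that run past it, 2 and 9 of 14 short ones without it, and 2 and 1 of the 4 long ones without it. In the same order 6, 9, 2 and 3 members passed the filter in the myotube libraries. Members that passed in myoblasts alone were likely to come out lower, so these counts cannot compare the classes. The difference between the classes was not tested.

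The promoters share elements within histone types. Of the 67 annotated members 62 matched a RefSeq entry (GRCm38.p6), which gives 250 bases before to 50 bases after the start. Hist1h2bm and Hist1h2bh, which are not in the deposited tables, were eligible and would count among the H2B promoters. The octamer ATTTGCAT, on either strand, was in 7 of 18 H2A and 7 of 16 H2B promoters and in none of the 28 others, against 1.92% of 26963 other genes. TATAAA was in 35 of 62 against 15.6%, and CCAAT in 53 of 62 against 41.0%, with 3 of the 12 H4 promoters and every promoter of the other types. These are matches of letters in a window of equal length, not shown binding sites.

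In myoblasts with siRNA 1, 2 members rose, an H1 gene and an H3 gene, and none fell. Hist1h1e was at 0.696, 1.06 and 0.918 CPM in control myoblasts and at 1.93, 1.74 and 1.66 with siRNA 1. Every depleted value was higher, and the log2 fold change in the fit of the 9 myoblast libraries was 1.00 (SE 0.26, adjusted p = 0.0174). Hist2h3c2 was at 0.464, 0.513 and 0.618 CPM in control myoblasts and at 0.941, 0.794 and 1.02 with siRNA 1, also without overlap, with 0.79 (SE 0.26, adjusted p = 0.0463). These were 2 of 49 members tested (7 at an unadjusted p under 0.05, 1 called by DESeq2), against 11.6% of 15586 genes called higher, 8.44% called lower and 20.0% called in all. The median log2 fold change was 0.07 over the members and 0.01 over all genes. The Hist1h1e call did not hold without myoblast control replicate 1 (0.0614), myoblast siRNA 1 replicate 1 (0.067) or myoblast control replicate 3 (0.0586), nor with the ribosomal RNA share in the model (0.852), and that of Hist2h3c2 did not hold without myoblast control replicate 1 (0.127), myoblast siRNA 1 replicate 1 (0.121), myoblast control replicate 2 (0.133), myoblast siRNA 1 replicate 2 (0.0662), myoblast control replicate 3 (0.0707) or myoblast siRNA 1 replicate 3 (0.103), nor with DESeq2 (0.0612), with limma on log2(TPM + 1) (0.0723), with limma on log2(TPM + 0.1) (0.0631) or with the ribosomal RNA share in the model (0.832). With the ribosomal RNA share in the model both directions turned, to -0.13 and -0.18; that share did not overlap between control and siRNA 1 libraries, and its part was not tested further. The log2 ratios were 1.40 within C14 and 0.74 within D2 for Hist1h1e and 0.90 within C14 and 0.86 within D2 for Hist2h3c2, C14 and D2 being the library prefixes.

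In myoblasts with siRNA 2, 5 members rose, of which 3 encode H3, 1 H1 and 1 H4, and 3 fell, 1 H1 gene and 2 H2B genes. Hist1h3a (chr13:23761853-23762386, minus strand), an H3 gene at the edge of detection, had 5.38, 2.25 and 5.0 estimated counts in control myoblasts and 16.5, 12.2 and 17.8 with siRNA 2, and its log2 fold change was 2.03 (SE 0.40, adjusted p = 0.00183). Hist1h1c went from 14.3, 14.7 and 14.5 CPM in control myoblasts to 9.84, 11 and 10.8 CPM, every depleted value lower, with -0.45 (SE 0.06, adjusted p = 0.000132). Hist1h2bc went from 6.15, 7.54 and 6.88 to 5.25, 4.93 and 4.5 CPM, again without overlap, with -0.48 (SE 0.09, adjusted p = 0.0016). Hist2h2be (chr3:96221119-96223738, plus strand), an H2B gene whose reads are all its own, went from 1.26, 1.59 and 1.24 to 0.561, 0.913 and 0.59 CPM, without overlap, with -0.99 (SE 0.21, adjusted p = 0.00274). These 4 calls held with each library left out in turn and in the other fits tried.

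The other calls with siRNA 2 were increases that did not hold with every library left out or in every fit. Hist1h4b (chr13:23757013-23757409, plus strand) went from 0.315, 0.11 and 0.141 to 0.439, 0.391 and 0.571 CPM, with 1.29 (SE 0.37, adjusted p = 0.0177). Hist2h3c2 reached 0.649, 0.891 and 1.27 CPM, with 0.82 (SE 0.26, adjusted p = 0.027), and Hist1h1e 1.1, 1.3 and 2.27 CPM, with 0.81 (SE 0.26, adjusted p = 0.031). Hist1h3f (chr13:23544052-23545312, plus strand), another H3 gene, went from 0.232, 0.238 and 0.30 to 0.509, 0.348 and 0.516 CPM, with 0.84 (SE 0.27, adjusted p = 0.0309). No depleted value of these 4 genes overlapped the controls. Adjusted p was above 0.05 for Hist1h4b without myoblast control replicate 2 (0.0745), myoblast control replicate 3 (0.0711) or myoblast siRNA 2 replicate 3 (0.0752), and with the ribosomal RNA share in the model (0.135). It was above 0.05 for Hist2h3c2 without myoblast control replicate 1 (0.0886), myoblast control replicate 2 (0.0802), myoblast siRNA 2 replicate 2 (0.0513) or myoblast siRNA 2 replicate 3 (0.145), and with the ribosomal RNA share in the model (0.533). For Hist1h3f this was so without myoblast control replicate 1 (0.0919), myoblast siRNA 2 replicate 1 (0.1), myoblast control replicate 2 (0.0951) or myoblast siRNA 2 replicate 3 (0.107), and with DESeq2 (0.11), with no filter on low counts (0.0707) or with the ribosomal RNA share in the model (0.177). For Hist1h1e it was so without myoblast control replicate 1 (0.111), myoblast control replicate 3 (0.0762) or myoblast siRNA 2 replicate 3 (0.155), and with limma on log2(TPM + 1) (0.0593), with limma on log2(TPM + 0.1) (0.0533) or with the ribosomal RNA share in the model (0.673).

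In all, 5 members were called higher and 3 lower of 49 tested with siRNA 2 in myoblasts, and 1 higher and 4 lower with the ribosomal RNA share in the model. That share was 1.20% to 1.36% in control and 1.46% to 4.10% in siRNA 2 libraries, without overlap. The model therefore cannot fully tell the share and the siRNA apart. Over 15586 genes 17.1% were called higher and 16.5% lower, 33.5% in all, and the medians were 0.27 over the members and 0.00 over all genes. Without the third siRNA 2 library, whose column is named for SETD3 and which held the largest ribosomal RNA share, 2 members were called higher and 3 lower, and without the second control library also 2 and 3. Replicate numbers were taken to pair the control and siRNA 2 myoblast libraries, but libraries of the same number also share a prefix, so the 2 cannot be told apart. With the number as a block 6 were called higher and 3 lower. The added call was the H1 gene Hist1h1a, at 0.133, 0.257 and 0.176 and 0.316, 0.457 and 0.387 CPM, with 1.05 and adjusted p = 0.0343 in place of 1.03 and adjusted p = 0.0548. Within prefixes the log2 ratios were -0.53 within C14 and -0.42 within D2 for Hist1h1c, -0.23 within C14 and -0.61 within D2 for Hist1h2bc, -1.17 within C14 and -0.91 within D2 for Hist2h2be and 1.76 within C14 and 2.25 within D2 for Hist1h3a. For Hist1h4b they were 0.48 within C14 and 1.94 within D2, for Hist2h3c2 0.48 within C14 and 0.94 within D2, for Hist1h3f 1.13 within C14 and 0.68 within D2 and for Hist1h1e 0.67 within C14 and 0.85 within D2.

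In myoblasts the type sums were called for H1, H2B and H3 with siRNA 2. The H3 sum was at 4.16, 4.11 and 3.81 CPM in controls, at 5.0, 4.38 and 4.46 with siRNA 1 and at 5.63, 5.03 and 6.58 with siRNA 2. It was called with siRNA 2, at 0.52 (SE 0.11, adjusted p = 0.00274), though not with the ribosomal RNA share in the model (0.0737), and not with siRNA 1, at 0.20 (SE 0.11, adjusted p = 0.237). The H2B sum was at 12.6, 12.8 and 13 CPM with siRNA 1 and at 10.8, 10.8 and 10.3 with siRNA 2, lower in every siRNA 2 library than in any control, with -0.27 (SE 0.06, adjusted p = 0.00257). The H1 sum was at 15.3, 16.2 and 16.4 and 12.2, 13.9 and 14.6 CPM, and was lower with siRNA 2, at -0.27 (SE 0.07, adjusted p = 0.00629); without Hist1h1c it was higher by 0.64 (adjusted p = 0.0116), and limma on log2(TPM + 1) did not call it (adjusted p = 0.21). Without Hist1h2bc the H2B sum was not called either (log2 fold change -0.05, adjusted p = 0.675). The H2A sum, at 181, 178 and 160.0 CPM with siRNA 1 and 201, 171 and 152 with siRNA 2, and the H4 sum, at 4.56, 4.6 and 5.11 and 4.37, 5.39 and 5.13, were not called. Of all rows tested 11.6% were called higher and 8.47% lower with siRNA 1 (20.1% in all), and 17.1% and 16.5% with siRNA 2 (33.6% in all); 0 of 5 sums were called with siRNA 1, where the lowest unadjusted p was 0.0921.

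Set against each other in myoblasts, the siRNAs gave different levels of 2 members. Hist1h2bc was at 7.2, 7.69 and 7.23 CPM with siRNA 1 and, as above, lower in every library with siRNA 2, a log2 difference of -0.59 (SE 0.09, adjusted p = 0.000547). Hist1h1c was at 12, 13.2 and 13.4 CPM with siRNA 1 and also lower in every siRNA 2 library, by 0.29 (SE 0.06, adjusted p = 0.00518), a call that did not hold with the ribosomal RNA share in the model (0.0692). These were 2 of 49 tested, both lower, against 12.1% of genes called higher and 14.3% lower, 26.3% in all. The medians were 0.08 over the members and 0.00 over all genes. The H1 sum differed by -0.23 (SE 0.07, adjusted p = 0.0187) and the H2B sum by -0.26 (SE 0.06, adjusted p = 0.00391), both lower with siRNA 2, and the H3 sum was higher, by 0.32 (SE 0.11, adjusted p = 0.0465). The H1 call was lost without myoblast siRNA 2 replicate 1 (0.0622) or myoblast siRNA 1 replicate 2 (0.0635), and with limma on log2(TPM + 1) (0.185), with limma on log2(TPM + 0.1) (0.181), with the ribosomal RNA share in the model (0.252) or sums without Hist1h2ap, Hist1h1c and Hist1h2bc (0.896). The H2B difference was 0.09, not called, without Hist1h2bc (adjusted p = 0.483), and the H3 call was lost without myoblast siRNA 2 replicate 1 (0.0687), myoblast siRNA 1 replicate 2 (0.142), myoblast siRNA 1 replicate 3 (0.108) or myoblast siRNA 2 replicate 3 (0.215), and with no filter on low counts (0.054), with limma on log2(TPM + 1) (0.0571) or with limma on log2(TPM + 0.1) (0.0547). Of all rows 12.2% were called higher and 14.3% lower, 26.5% in all. These comparisons share their siRNA libraries with the comparisons against control.

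In myotubes with siRNA 1, Hist1h2ap was lower, and no other member was called. It was at 21.2, 21.6 and 26.2 CPM in control myotubes and at 15.8, 16.7 and 14.8 with siRNA 1. Every depleted value was lower, and the log2 fold change in the fit of the 9 myotube libraries was -0.54 (SE 0.12, adjusted p = 0.0148); without the third siRNA 1 library adjusted p was 0.0604. That was 1 of the 20 members that passed the filter in myotubes, against 11.0% of 16097 genes called higher, 9.57% lower and 20.5% in all. The medians were -0.08 over the members and 0.00 over all genes. Without the first siRNA 1 library, or without the second control, 1 member was called higher and 1 lower.

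With siRNA 2 in myotubes, 4 members were lower and none was higher. Hist1h4i, the leading H4 gene, was at 2.05, 2.23 and 1.98 CPM in control myotubes and at 1.53, 1.17 and 1.49 with siRNA 2, without overlap, with -0.59 (SE 0.15, adjusted p = 0.0117). Hist1h2ap was at 20.2, 16 and 14.9 CPM, with -0.44 (SE 0.12, adjusted p = 0.0244), and Hist1h1c went from 66, 70.2 and 62.6 to 53.4, 55.3 and 57.2 CPM, with -0.26 (SE 0.08, adjusted p = 0.0263). Both were lower in every depleted library. Hist2h2bb (chr3:96269752-96270132, plus strand), an H2B gene that shares 53.6% of its windows with Gm42743, had 11.8, 13.2 and 13.6 estimated counts in controls and 6.41, 0.349 and 3.35 with siRNA 2, with -2.03 (SE 0.67, adjusted p = 0.035). Over 16097 genes 15.8% were called higher and 16.4% lower, 32.2% in all, and the medians were -0.25 over the 20 members and -0.01 over all genes.

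None of these 4 calls held throughout. Adjusted p was above 0.05 for Hist1h4i without myotube siRNA 2 replicate 2 (0.0635), and with the ribosomal RNA share in the model (0.0913). It was above 0.05 for Hist1h2ap without myotube siRNA 2 replicate 2 (0.0896), myotube control replicate 3 (0.0624) or myotube siRNA 2 replicate 3 (0.0749), and with no filter on low counts (0.0683) or with the ribosomal RNA share in the model (0.225). The same was so for Hist1h1c without myotube control replicate 1 (0.0679), myotube siRNA 2 replicate 1 (0.0917), myotube control replicate 2 (0.0929), myotube siRNA 2 replicate 2 (0.102) or myotube siRNA 2 replicate 3 (0.0622), and with no filter on low counts (0.102), and for Hist2h2bb without myotube control replicate 1 (0.0868), myotube control replicate 2 (0.0534), myotube siRNA 2 replicate 2 (0.107), myotube control replicate 3 (0.0914) or myotube siRNA 2 replicate 3 (0.0912), and with the ribosomal RNA share in the model (0.157). Without the third control, which carries another control name, 0 members were called higher and 2 lower. Within prefixes the log2 ratios were -0.39 within C13 and -0.75 within D1 for Hist1h4i, -0.23 within C13 and -0.48 within D1 for Hist1h2ap, -0.27 within C13 and -0.32 within D1 for Hist1h1c and -1.13 within C13 and -2.74 within D1 for Hist2h2bb; for Hist1h2ap with siRNA 1 they were -0.59 within C13 and -0.45 within D1.

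**Figure D5:**
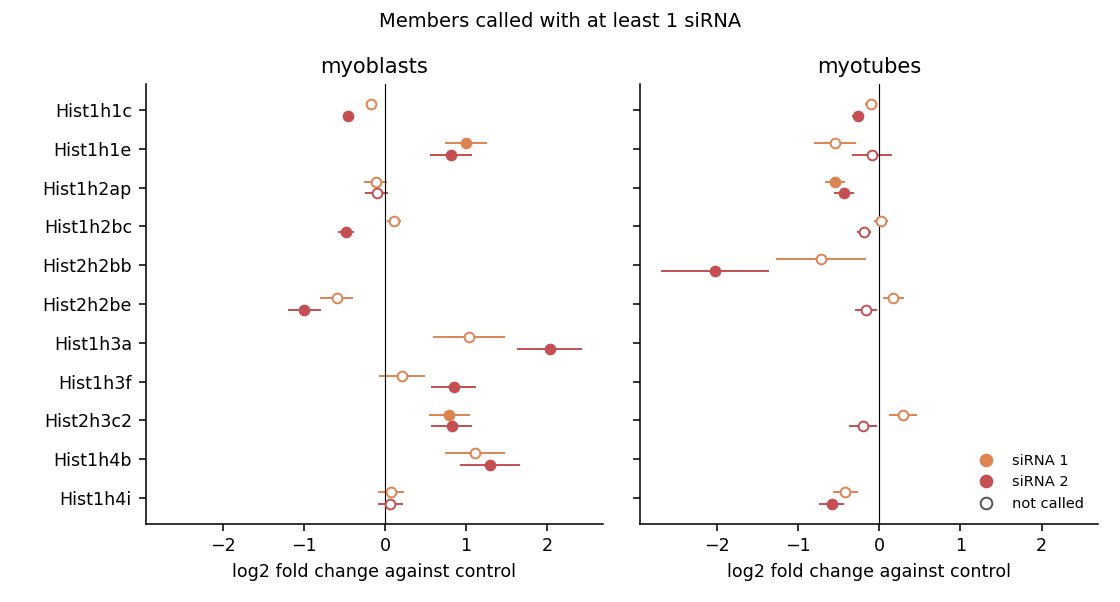
Log2 fold change against control (horizontal axis) in myoblasts (left) and myotubes (right) for every member called with at least 1 siRNA; orange is siRNA 1, red siRNA 2, filled points were called, open points were not, bars are 1 SE. Hist1h1e and Hist2h3c2 lie above 0 with each siRNA in myoblasts, and Hist1h2ap lies below 0 with each siRNA in myotubes; a gene with no point did not pass the filter in that stage.

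By type, the H2A sum of myotubes was lower with each siRNA. It was at 33.8, 35.6 and 38.8 CPM in controls, at 27.9, 32.8 and 29.1 with siRNA 1 and at 30.9, 27.8 and 25.2 with siRNA 2, and it changed by -0.27 (SE 0.08, adjusted p = 0.0437) with the first siRNA and by -0.37 (SE 0.08, adjusted p = 0.00627) with the second. With siRNA 1 this rested on Hist1h2ap: without it the sum was higher by 0.12 (adjusted p = 0.416), and with siRNA 2 it was no longer called (adjusted p = 0.0502). The siRNA 2 call was also lost with the ribosomal RNA share in the model (0.0745). The siRNA 1 call was also lost without myotube control replicate 1 (0.0507), myotube siRNA 1 replicate 1 (0.13), myotube control replicate 2 (0.0933), myotube control replicate 3 (0.137) or myotube siRNA 1 replicate 3 (0.148), and with no filter on low counts (0.0597), with that share (0.0883) or the library prefix (0.0651) in the model. With siRNA 2 the H4 sum went from 3.35, 3.71 and 3.26 to 2.75, 2.22 and 2.73 CPM, with -0.43 (SE 0.12, adjusted p = 0.0153), and the H1 sum from 67, 71.2 and 63.8 to 54.1, 56.3 and 58.3 CPM, with -0.26 (SE 0.08, adjusted p = 0.0301). The H4 call was lost without myotube control replicate 2 (0.0653) or myotube siRNA 2 replicate 2 (0.0813), and with the ribosomal RNA share in the model (0.158). The H1 call was lost without myotube control replicate 1 (0.0734), myotube siRNA 2 replicate 1 (0.102), myotube control replicate 2 (0.1), myotube siRNA 2 replicate 2 (0.108) or myotube siRNA 2 replicate 3 (0.0676), and with no filter on low counts (0.115) or sums without Hist1h2ap, Hist1h1c and Hist1h2bc (0.786). The H2B sum, at 47.4, 60.2 and 56.4 and 44.7, 49.4 and 49.2 CPM, and the H3 sum, at 4.71, 7.63 and 7.11 and 3.78, 5.49 and 5.01, were not called against control with either siRNA. Of all rows 11.0% were called higher and 9.58% lower with siRNA 1 (20.6% in all), and 15.8% and 16.4% with siRNA 2 (32.3% in all).

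Between the siRNAs in myotubes, Hist2h2aa1 was at 6.42, 7.98 and 5.97 CPM with siRNA 1 and at 3.44, 4.71 and 4.3 with siRNA 2, lower in every library, by 0.71 (SE 0.20, adjusted p = 0.0364) on the log2 scale. Adjusted p was above 0.05 without myotube siRNA 1 replicate 1 (0.0831), myotube siRNA 2 replicate 1 (0.101), myotube siRNA 1 replicate 2 (0.121), myotube siRNA 2 replicate 2 (0.0656), myotube siRNA 1 replicate 3 (0.0565) or myotube siRNA 2 replicate 3 (0.106), and with no filter on low counts (0.125) or with the ribosomal RNA share in the model (0.0637), so leaving out any 1 of the 6 libraries ended this call. It was 1 of 20 tested, against 7.76% of genes called higher and 9.36% lower, 17.1% in all; the medians were -0.16 over the members and 0.00 over all genes. Without the first siRNA 1 library 3 members were called lower. Replicate numbers were taken to pair these libraries, though libraries of the same number also share a prefix. With the number as a block 3 members were called lower. The added ones were Hist1h2bc, at -0.21 (adjusted p = 0.0126 in place of 0.135), and Hist2h3c2, at -0.50 (adjusted p = 0.00856 in place of 0.0743). With the block the H2B sum (-0.20, adjusted p = 0.0162) and the H3 sum (-0.44, adjusted p = 0.0161) were also called, and without it none of the 5 sums was (2 had an unadjusted p under 0.05), nor with DESeq2, against 7.77% of all rows higher, 9.36% lower and 17.1% in all.

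Whether depletion acted alike in both stages was tested as the mean effect of the siRNAs in myotubes minus that in myoblasts. Of 51 members 1 was called higher, 5 were called lower and 12 had an unadjusted p under 0.05, against 10.6% of 16930 genes called higher, 12.8% lower and 23.4% in all. Hist2h2be was lower in depleted than in control myoblasts and stood at 3.07, 2.26 and 2.66 CPM in control myotubes against 2.81, 3.16 and 2.96 and 2.5, 2.38 and 2.2 with the siRNAs, with overlap; the difference was 0.80 (SE 0.20, adjusted p = 0.00666). Hist1h1e, higher in depleted myoblasts, was at 0.722, 0.58 and 0.641 CPM in control myotubes and at 0.369, 0.551 and 0.402 and 0.42, 0.671 and 0.713 with the siRNAs, a difference of -1.22 (SE 0.33, adjusted p = 0.0107). Hist1h4i was at 1.82, 1.87 and 2.35 CPM with siRNA 1 and 1.75, 2.41 and 1.84 with siRNA 2 in myoblasts, overlapping the controls there, and at 1.34, 1.65 and 1.68 with siRNA 1 in myotubes, a difference of -0.57 (SE 0.19, adjusted p = 0.0355).

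The remaining members called in this test had few counts in myotubes. Hist1h1b (chr13:21779883-21780625, minus strand), an H1 gene of dividing cells, had 3.0, 7.0 and 9.0 counts in control myotubes, 3.0, 1.0 and 2.0 with siRNA 1 and 6.0, 8.0 and 4.0 with siRNA 2, while in myoblasts it was at 0.298, 0.403 and 0.30 CPM in controls and 0.439, 0.499 and 0.466 and 0.491, 0.543 and 0.498 with the siRNAs. Its difference was -1.34 (SE 0.45, adjusted p = 0.0399). Hist1h1a (chr13:23763666-23764406, plus strand) had 3.0, 5.0 and 2.0 counts in control myotubes and 2 counts over the 3 libraries of each siRNA. Hist1h3b (chr13:23752267-23752886, plus strand) had 4.81, 8.72 and 4.15 in controls, 0, 5.07 and 0 with siRNA 1 and 0, 0 and 1.34 with siRNA 2. Both were called lower (adjusted p = 0.0218 and 0.0146), but fitted values at such counts depend on the prior count and give no fold.

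Most calls of the stage difference likewise did not hold with every library left out or in every fit. Adjusted p was above 0.05 for Hist1h4i without myoblast control replicate 2 (0.0625), myoblast siRNA 2 replicate 2 (0.0591), myoblast control replicate 3 (0.0947), myoblast siRNA 1 replicate 3 (0.0553), myotube control replicate 1 (0.0545), myotube siRNA 1 replicate 1 (0.05), myotube control replicate 2 (0.0893) or myotube siRNA 2 replicate 2 (0.0557), and with no filter on low counts (0.0573) or with the ribosomal RNA share in the model (0.066). For Hist1h1b this was so without myoblast control replicate 1 (0.0716), myoblast siRNA 1 replicate 2 (0.0549), myoblast siRNA 2 replicate 2 (0.0512), myoblast control replicate 3 (0.0738), myotube control replicate 2 (0.064), myotube siRNA 1 replicate 2 (0.0825), myotube control replicate 3 (0.276), myotube siRNA 1 replicate 3 (0.0619) or myotube siRNA 2 replicate 3 (0.0672), and with DESeq2 (0.0933), with no filter on low counts (0.0957) or with the library prefix in the model (0.0617). For Hist1h1a it was so without myotube control replicate 1 (0.0514) or myotube control replicate 2 (0.0924), for Hist1h3b without myotube control replicate 2 (0.0587), and for Hist2h2be with limma on log2(TPM + 1) (0.0503), while Hist1h1e was called in each. Without the second myotube control 1 member was called higher and 1 lower. The median was -0.38 over the 51 members, -0.31 over the 35 above 3 counts in every group, and 0.00 over all genes. Of the type sums H4 was called, with -0.49 (SE 0.13, adjusted p = 0.0097), against 10.7% of all rows higher, 12.8% lower and 23.5% in all.

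The values that follow are of named members in groups where they were not called against control. Hist1h2bk was at 1.19, 1.02 and 1.25 CPM with siRNA 1 and 1.72, 1.39 and 1.24 with siRNA 2 in myoblasts, and at 3.42, 4.08 and 3.71 and 3.15, 3.62 and 3.78 in myotubes. Hist1h1d was at 0.611, 0.573 and 0.745 CPM with siRNA 1 and 0.474, 0.565 and 0.571 with siRNA 2 in myoblasts, and at 0.0776, 0.408 and 0.183 and 0.189, 0.30 and 0.257 in myotubes. These values overlapped the controls of their stage. Hist1h2bl was at 0.157, 0.148 and 0.373 CPM with siRNA 1 and 0.14, 0.13 and 0.221 with siRNA 2 in myoblasts, and at 0.311, 0.367 and 0.767 and 0.483, 0.53 and 0.673 in myotubes. Hist1h4n was at 0.392, 0.628 and 0.652 CPM with siRNA 1 and 0.509, 0.50 and 0.811 with siRNA 2 in myoblasts, and at 0.194, 0.0816 and 0.183 and 0.21, 0.159 and 0.178 in myotubes. Hist1h2bl was lower than control in each siRNA 2 myoblast library but was not called (adjusted p = 0.136). Hist1h4h was at 0.188, 0.222 and 0.41 CPM with siRNA 1 and 0.246, 0.196 and 0.369 with siRNA 2 in myoblasts, and at 0.213, 0.265 and 0.237 and 0.21, 0.23 and 0.257 in myotubes. Hist1h3i was at 0.376, 0.296 and 0.503 CPM with siRNA 1 and 0.316, 0.348 and 0.995 with siRNA 2 in myoblasts, and at 0, 0.0612 and 0.0731 and 0, 0.053 and 0.0792 in myotubes. They overlapped the controls with each siRNA. Hist1h3h was at 0.564, 0.591 and 0.335 CPM with siRNA 1 and 1.07, 0.50 and 0.645 with siRNA 2 in myoblasts, and at 0, 0 and 0 and 0.147, 0 and 0.178 in myotubes. Hist2h2aa2 was at 0.878, 0.665 and 0.112 CPM with siRNA 1 and 0.754, 0.717 and 0.571 with siRNA 2 in myoblasts, and at 0, 1.14 and 1.88 and 1.34, 1.13 and 0.693 in myotubes. Hist2h2aa1 was at 1.79, 1.48 and 1.83 CPM with siRNA 1 and 0.597, 0.674 and 1.36 with siRNA 2 in myoblasts, Hist1h2ap at 172, 169 and 152 and 192, 163 and 143. In depleted myotubes Hist1h2bc was at 39.2, 50.3 and 47 CPM with siRNA 1 and 36.7, 41.1 and 40.4 with siRNA 2, Hist2h3c2 at 4.39, 7.02 and 6.54 and 3.32, 4.89 and 4.49, and Hist1h1c with siRNA 1 at 52.7, 67.4 and 64.5. The siRNA 2 values of Hist1h2bc lay below every control of that stage but were not called, and the values of Hist2h3c2 overlapped the controls.

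The genes that make, process and remove histone mRNA fell on differentiation. Of 19 genes of histone mRNA 3′ processing 17 were called lower and 1 higher in control myotubes, with a median log2 fold change of -0.86 against 0.00 over all genes, of which 38.1% were called lower and 39.4% higher. Slbp, which binds the stem-loop, fell by 1.96 (adjusted p = 7.09e-19) on the log2 scale, Casp8ap2, a factor of the histone locus body, by 0.92 (adjusted p = 7.71e-14), and Lsm10, of the processing RNP, rose by 0.23 (adjusted p = 0.00612). Of 8 genes of histone gene transcription 7 were lower and none higher (median -0.82), among them Npat, the coactivator of histone genes, by -0.69 (adjusted p = 2.86e-12), and Ccne1, by -2.72 (adjusted p = 3.82e-20). Of 15 genes of histone mRNA decay 14 were lower and 1 higher (median -0.97): Eri1, the exonuclease of the stem-loop, changed by -1.23 (adjusted p = 1.37e-16), Dis3 by -1.60 (adjusted p = 1.17e-17) and Tut7 by 0.67 (adjusted p = 2.14e-12). Of 20 S phase genes 20 were lower (median -2.10, Mcm5 at -2.67 (adjusted p = 1.92e-21)), and of 10 mitosis genes 10 were lower (median -2.85, Ccnb1 at -3.15 (adjusted p = 1.92e-21)).

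Of 11 replication-independent histone variants 8 were lower and 2 higher (median -1.23), against 38.1% and 39.4% of all genes. Among them were Cenpa, the centromeric H3, at -2.66 (adjusted p = 3.15e-20), and H3f3a, which encodes the replacement H3, at 0.46 (adjusted p = 9.55e-09). Of 21 histone chaperones and their partners 14 were lower and 4 higher (median -0.86), with Ubn1, of the HIRA complex, at 0.59 (adjusted p = 2.36e-09). Of 15 RNAs without a poly(A) tail 6 could be tested and 1, Rn7sk, was called, at 1.17 (adjusted p = 0.0106). Those with a mean of at least 1 CPM, CT010467.1, AY036118, Rn7sk, Rn7s1 and Rn7s2, give the levels of RNA without a tail in these libraries. CT010467.1, a ribosomal RNA-like sequence, was at 9495, 10900.0 and 10320.0 CPM in control myoblasts and 19870.0, 12840.0 and 10500.0 in control myotubes, and AY036118 at 1836, 2145 and 1990.0 and 3374, 2421 and 2017; their groups overlapped. Rn7sk was at 2.09, 4.18 and 4.25 and 8.38, 7.91 and 7.34 CPM, Rn7s1 at 0, 6.55 and 4.98 and 2.35, 4.64 and 0, and Rn7s2 at 6.08, 0 and 2.49 and 4.7, 4.66 and 9.4. Rn7s1 was at 0 in a single library of each stage and Rn7s2 in a single myoblast library.

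With Setd2 depleted, the cell cycle genes fell in myotubes beside Hist1h2ap and the H2A sum. Of 20 S phase genes 14 were called lower with siRNA 1 and 15 with siRNA 2, none higher (medians -0.33 and -0.32), against 9.57% and 16.4% of all genes called lower. They were led by Mcm4, at -0.37 (adjusted p = 0.000129) and -0.45 (adjusted p = 1.31e-05). All 10 mitosis genes were lower with each siRNA (medians -0.53 and -0.42), led by Top2a, at -0.68 (adjusted p = 4.13e-06) and -0.58 (adjusted p = 1.66e-06). Slbp was lower, at -0.25 (adjusted p = 0.00539) with siRNA 1 and -0.23 (adjusted p = 0.00531) with siRNA 2, as were Npat, at -0.15 (adjusted p = 0.02) and -0.15 (adjusted p = 0.0139), and Eri1, at -0.15 (adjusted p = 0.0165) and -0.11 (adjusted p = 0.0415). The part of these genes in the histone values was not tested.

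In depleted myoblasts the same lists moved otherwise. Of the S phase genes 1 was called higher and 1 lower with siRNA 1 and 6 and 4 with siRNA 2, and of the mitosis genes 4 and 1, and 7 and 0; over all genes 11.6% were higher and 8.44% lower with siRNA 1 and 17.1% and 16.5% with siRNA 2. Rrm2 led the S phase increases with each siRNA, at 0.23 (adjusted p = 0.000176) and 0.55 (adjusted p = 5.77e-08), and Plk1 the mitosis ones, at 0.30 (adjusted p = 6.53e-05) and 0.37 (adjusted p = 5.21e-06). Slbp was not called in myoblasts; Eri1 was at -0.15 (adjusted p = 0.0136) with siRNA 1 and Casp8ap2 at 0.26 (adjusted p = 0.000298) with siRNA 2. In the test of the stage difference 16 of 20 S phase and 10 of 10 mitosis genes were called lower, none higher, against 12.8% of all genes called lower. AY036118 was higher with siRNA 1, at 1.71 (adjusted p = 0.026), beside the larger ribosomal RNA share of those libraries. H3f3b, a replacement H3 gene, was higher with siRNA 2, at 0.66 (adjusted p = 1.33e-08), as the H3 sum was, and Chaf1a, of the chaperone that places H3 and H4 on new DNA, lower, at -0.65 (adjusted p = 6.67e-08).

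Members known as testis forms were at or near 0. Hist1h2aa and Hist1h2ba had 0 counts in all 18 libraries, and Hist1h1t had 0 to 3 counts a library. In all, 14 members did not pass the filter on low counts in the fit of 18 libraries, and 45 did not pass it in myotubes, so the depletion effects in myotubes rest on the other 20; with no filter 61 members were tested there, and 0 were called higher and 1 lower with siRNA 1, and 0 and 3 with siRNA 2.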

How the data were processed

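Poly(A) RNA of C2C12 cells was sequenced in 18 libraries, 3 in each of 6 groups assigned from the sample titles. The values are estimated counts and TPM per transcript, deposited by the authors in 1 table per stage; per the file headers, each library has columns named as salmon names them. Which quantifier, annotation and strand setting made them was not given in the sources used here. In each library the authors scaled the TPM, and the estimated counts, as deposited, were not scaled between libraries. Per the submitters' processing notes, mm10 and DESeq2 were used, with no role stated. Reads of a gene and of one that overlaps it on the other strand may not be separable.

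Transcripts were matched by identifier to GENCODE M21 (114200 of 115088; the 888 others held 0.16% to 0.24% of the counts) and summed per gene; counts were rounded to whole numbers for the tests. Depth was 43.5 to 66.6 M estimated counts a library; 3 counts over a group were taken as the floor, which covers counting error only. No libraries of a group agreed within sampling noise. Genes were tested with edgeR 4.0.16 in R 4.3.3 (filterByExpr with a minimum count of 10, TMM scaling, robust quasi-likelihood F-test, Benjamini-Hochberg over all genes, called at adjusted p under 0.05), stage comparisons on all 18 libraries and siRNA comparisons on the 9 of a stage. Printed CPM come from the fit of 18 libraries and fold changes within a stage from that stage's fit. For type sums the members were replaced by 5 summed rows and the table was refitted. The fits were tested on simulated counts. Alternatives were DESeq2 1.42.0, RLE scaling, no filter, limma 3.58.1 on log2(TPM + 1) and log2(TPM + 0.1), a replicate block, the ribosomal RNA share or library prefix in the model, and leaving out each library.

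Labelled replicate numbers were taken to pair libraries where deviations from group means correlated over 0.1 in all 3 pairs: control with siRNA 2 myoblasts (0.507, 0.213 and 0.291) and siRNA 1 with siRNA 2 myotubes (0.289, 0.124 and 0.195). In these comparisons libraries of the same number also share a library prefix, so pairing and prefix cannot be told apart.

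The members and gene lists were chosen with earlier results of these data known. Named members are the 3 with the highest mean TPM per type, up to 5 a direction with the smallest adjusted p per comparison, and testis forms; of the lists, called genes with the smallest adjusted p, Slbp, Npat, Casp8ap2, Eri1 and RNAs without a tail at 1 CPM or more. The stem-loop word was read from annotated transcripts in place of the genome, which was not used here.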

Additional observations from a re-analysis of the deposited data

Results flagged for a closer look

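The effect of Setd2 depletion on 6 members and 1 type sum differed between the stages by a direct test (mean log2 effect of both siRNAs in myotubes minus that in myoblasts, edgeR's quasi-likelihood test, adjusted p under 0.05, 18 libraries). Hist1h1e, higher in all 6 depleted myoblast libraries than in any control, had a difference of -1.22. Hist1h4i, lower in all 6 depleted myotube libraries, had -0.573. Hist2h2be, lower in all 6 depleted myoblast libraries, had 0.80. Hist1h1b had -1.344, Hist1h1a -2.614 and Hist1h3b -3.103; these have few counts in depleted myotubes, and the last 2 values depend on the prior count. The H4 sum had -0.487. In the same test 23.4% of all genes were called.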

How the results depend on the processing

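Counts of members called that moved by over 1.5 times were as follows; unless a value shows it, the cause was not tested. For siRNA 1 in myoblasts (2), DESeq2 called 1, limma on log2(TPM + 1) 4, the prefix model 6 and the ribosomal share model 0. For siRNA 2 in myoblasts (8) the share model called 5. Between siRNAs in myoblasts (2), limma on log2(TPM + 1) called 5 and the prefix model 7. For siRNA 1 in myotubes (1), each limma fit called 2 and the prefix model 3; for siRNA 2 there (4), the share model 1 and the prefix model 7; between siRNAs there (1), DESeq2 2, the share model 0 and the prefix model 4. RLE scaling moved none of the 16 counts.

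Counts of the 5 sums moved likewise: the stage difference (1) to 2 with the prefix; between siRNAs in myoblasts (3) to 1 in each limma fit; siRNA 1 in myotubes (1) to 0 without a filter and with the share, and to 2 in each limma fit; siRNA 2 there (3) to 1 with the share and 5 with the prefix; between siRNAs there (0) to 3 with the prefix. Sums without Hist1h2ap, and without Hist1h2ap, Hist1h1c and Hist1h2bc, were added after seeing the data. They called 0 and 0 for siRNA 1 in myotubes and 1 and 1 between siRNAs there; the latter set gave 2 for the stage difference, 1 for siRNA 1 in myoblasts and 1 between siRNAs in myoblasts.

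Directions that turned were, on differentiation, H2A (0.81 under either), H1 (-0.877 without the 3 genes) and H3 in limma (-0.469 and -0.494 with pseudocounts 1 and 0.1); with the share in the model, Hist1h1e (-0.132) and Hist2h3c2 (-0.177) for siRNA 1 in myoblasts; without the 3 genes, H1 for siRNA 2 in myoblasts (0.638), H2B between siRNAs there (0.089) and, under either, H2A for siRNA 1 in myotubes (0.118).

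With the replicate number as a block, the comparisons taken as paired called 9 members for siRNA 2 in myoblasts and, between siRNAs in myotubes, 3 members and 2 sums. Where the numbers are not shown to pair libraries, the block called 31 members on differentiation, 7 for the stage difference, 6 for siRNA 1 and 4 between siRNAs in myoblasts, and 2 members and 0 sums for siRNA 1 and 6 members for siRNA 2 in myotubes.

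Leaving out 1 library at a time gave 36 to 39 members on differentiation, 2 to 9 for the stage difference, 0 to 2 for siRNA 1, 5 to 9 for siRNA 2 and 2 to 3 between siRNAs in myoblasts, and 0 to 2, 1 to 3 and 0 to 3 in myotubes. Of the sums it gave 5 to 5, 1 to 1, 0 to 0, 3 to 3, 1 to 3, 0 to 1, 1 to 3 and 0 to 3 in the same order. In myotubes 45 of the 65 members did not pass the filter on low counts and so could not be called in the fits that use it.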
